A study of Homo sapiens with 24 samples.

Results

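The Sprouty and SPRED genes are a family of 6 members in the deposited table, 3 Sprouty genes (SPRY1, SPRY2 and SPRY4) and 3 SPRED genes (SPRED1, SPRED2 and SPRED3), out of 60230 genes listed. They were taken by name as a gene family. All 6 passed the filter on low counts. The levels come from sequencing of polyA RNA from 24 tumors of AsPC-1, an established human pancreatic ductal adenocarcinoma line, grown as xenografts in mice. Tumor-bearing mice were dosed by mouth every other day, 3 times in all, and 4 animals were sampled per group. IK-595, which the labels describe as a molecular glue of MEK and RAF, was given at 6 mg/kg, and tumors were taken 2, 4, 8, 24 and 48 h after the last dose. Vehicle, a mixture of DMSO and PEG400, was sampled at 2 h. All 5 comparisons with vehicle share those 4 vehicle tumors, and the later ones also differ in the time since dosing. The xenograft is 1 cell line, and mouse stromal cells are part of each tumor.

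Sprouty and SPRED proteins are brakes on receptor tyrosine kinase signaling through RAS, RAF, MEK and ERK. Sprouty proteins are recruited to the membrane after receptor activation, bind adaptors such as GRB2 and the ubiquitin ligase CBL, and dampen the route from receptor to ERK. SPRED proteins carry an EVH1 domain that binds neurofibromin, the RAS GTPase-activating protein encoded by NF1, and bring it to the membrane, where it switches RAS off. Several of these genes are themselves switched on by ERK activity, which makes them negative feedback regulators, and loss of SPRED1 in the germ line causes Legius syndrome.

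Depth was 10.52 to 20.64 M counts per tumor. It was 19.68 to 20.58 M in vehicle tumors, and lower without overlap at 2 h (15.44 to 18.66 M) and 8 h (11.26 to 14.86 M). The ranges at 4, 24 and 48 h overlapped that of vehicle. All 8 epithelial markers of the line were measured, summing to 5167 to 12090 TPM (a level per transcript length, scaled to the same total in every tumor). Fibroblast and pericyte markers summed to 353 to 1571 TPM in 23 tumors and to 9982 TPM in tumor 2 at 4 h. Adipocyte, muscle and red cell markers exceeded 200 TPM in 5 tumors, namely tumor 1 at 2 h, tumor 4 at 4 h, tumors 2 and 4 at 8 h and tumor 4 at 24 h. ADIPOQ was at 0 in all 24 tumors.

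Against vehicle, the family was lower 2 h after the last IK-595 dose, stayed low to 8 h and rose again by 24 to 48 h. No IK-595 tumors were taken just before that dose, so fell and rose here mean lower and higher than the group compared. Calls rest on an edgeR quasi-likelihood test across 18242 genes at an adjusted p under 0.05. At 2 h 5 of the 6 genes fell and 0 rose, where 13.6% of all genes tested fell and 13.4% rose. SPRED1 was not called there, but was called lower in several other fits, some of them by edgeR. At 4 h all 6 fell, against 8.39% of all genes that fell and 6.74% that rose. At 8 h all 6 fell again, against 23.7% that fell and 20.6% that rose. At 24 h 2 fell and 1 rose, against 13.8% and 13.7% of all genes. At 48 h none of the 6 was called by edgeR in either direction, where 4.46% of all genes fell and 5.52% rose; none had an unadjusted p under 0.05, and neither DESeq2 nor limma-voom called any. The median log2 fold change over the 6 genes was -1.42, -1.93, -2.10, -0.49 and -0.22 over the successive times, and over all genes tested it lay between -0.01 and 0.07. In bulk tumors fewer cells of a type and less RNA per cell cannot be told apart.

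**Figure D1:**
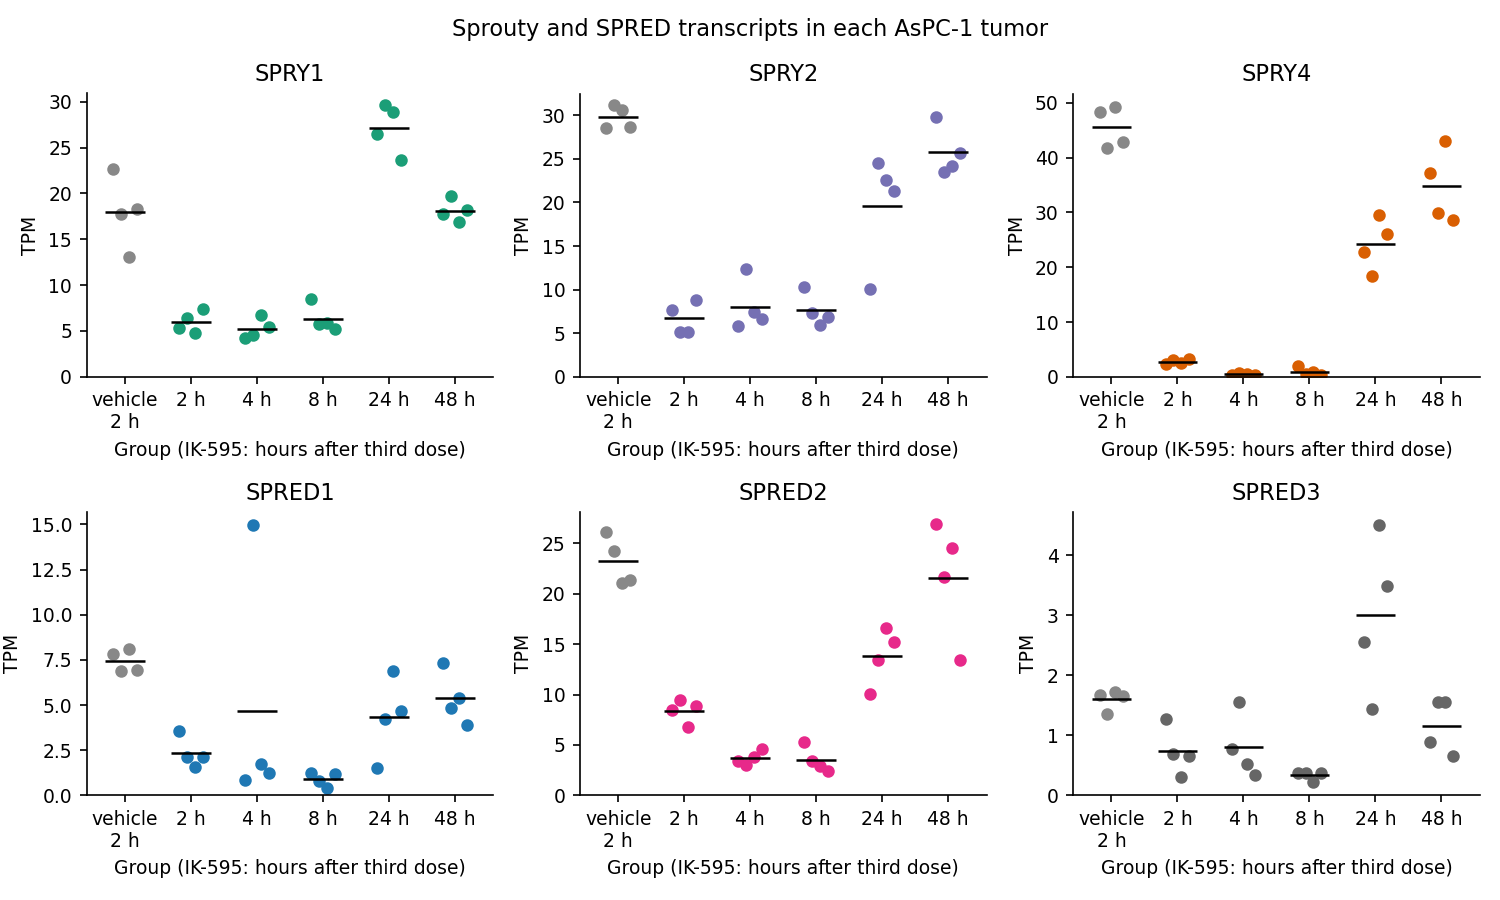
TPM of each gene (vertical axis) in every tumor (points) by group (horizontal axis), with the group mean as a bar; vehicle tumors are grey and IK-595 times run from 2 to 48 h. SPRY4 lies between 0.361 and 3.27 TPM in all 12 tumors from 2 to 8 h, SPRY1 is above every vehicle tumor at 24 h, and 1 tumor at 4 h stands far above the others for SPRED1.

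Between successive times the changes were unevenly spread over the family. From 2 to 4 h SPRY4 and SPRED2 fell further and no member rose, where 9.0% of all genes fell and 6.89% rose. From 4 to 8 h SPRY1 and SPRY4 rose and none fell, against 11.6% of all genes that rose and 15.5% that fell. From 8 to 24 h all 6 rose, where 5.30% of all genes rose and 1.58% fell. From 24 to 48 h none was called by edgeR, where 2.47% of all genes rose and 1.60% fell, although SPRY1 and SPRED2 had unadjusted p values of 0.00432 and 0.00620; DESeq2 called both and limma-voom called SPRY1. The 24 h over 8 h difference is not taken against vehicle, but the vehicle tumors share the fit behind its p values. In an edgeR fit of those groups alone SPRED3 was not called (adjusted p 0.0782).

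**Figure D2:**
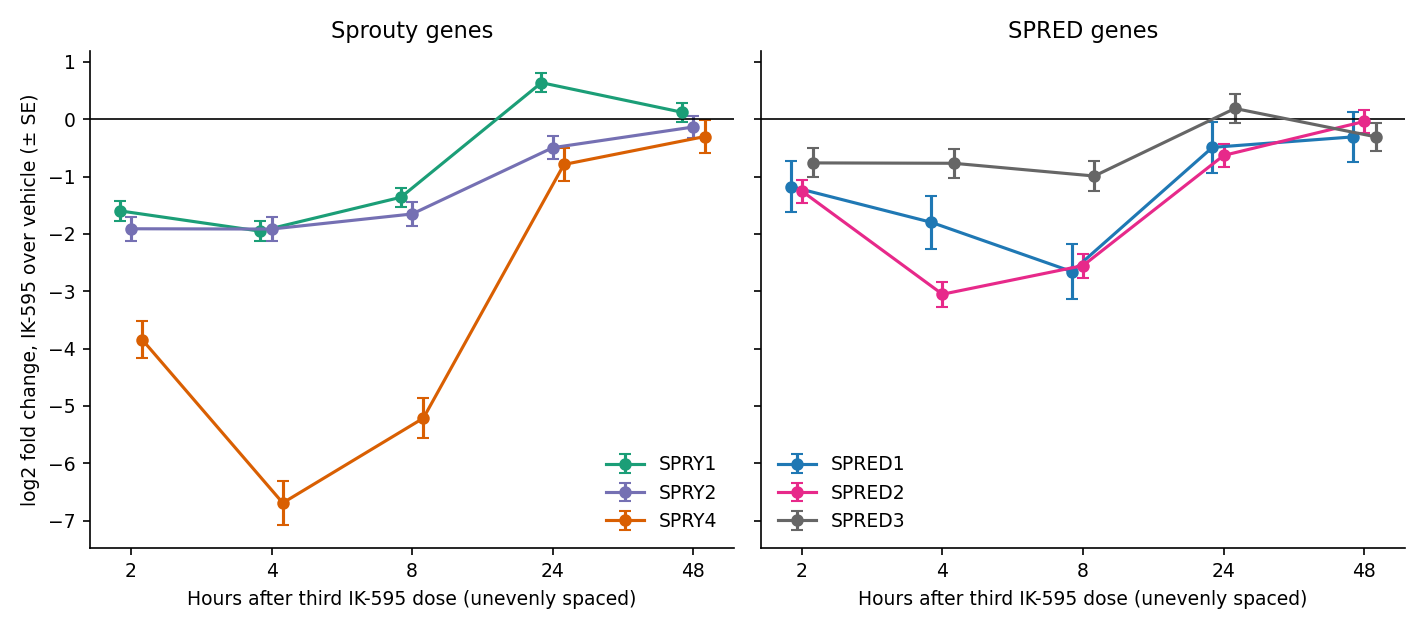
Log2 fold change of IK-595 over vehicle tumors (vertical axis) from edgeR at each time (horizontal axis, hours, unevenly spaced); points are estimates and whiskers are the standard error, with n = 4 tumors per group. SPRY4 reaches -6.69 at 4 h, SPRED2 -3.05 at 4 h, and SPRY1 lies above 0 at 24 h.

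Because the members fell and returned together, their promoters are shown. All 6 genes matched the RefSeq promoter table (GRCh38.p14), with 11 listed starts, and the 250 bases before each start were searched on both strands. Motifs searched were CCGGAAGT and its shorter core CCGGAA, bound by ETS factors; TGAATGAA and TGAATGGA, bound by the repressor CIC; TGANTCA, bound by AP-1; TGACGTCA, bound by CREB; and GGGCGG, bound by SP1. CCGGAA lies within CCGGAAGT. The windows of 4 genes follow, 5′ to 3′ on the gene's strand, with matched motifs in capitals and the first listed start of each gene used.
SPRY4: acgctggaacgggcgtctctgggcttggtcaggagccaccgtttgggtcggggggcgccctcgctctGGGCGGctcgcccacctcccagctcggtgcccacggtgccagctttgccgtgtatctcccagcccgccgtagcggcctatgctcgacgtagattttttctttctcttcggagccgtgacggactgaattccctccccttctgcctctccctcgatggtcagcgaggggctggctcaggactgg
SPRY2: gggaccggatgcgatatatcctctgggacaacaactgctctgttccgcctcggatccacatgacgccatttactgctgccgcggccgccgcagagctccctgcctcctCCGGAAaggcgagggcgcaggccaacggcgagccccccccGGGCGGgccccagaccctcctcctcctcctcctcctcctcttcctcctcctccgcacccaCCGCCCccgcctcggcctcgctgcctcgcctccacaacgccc
SPRY1: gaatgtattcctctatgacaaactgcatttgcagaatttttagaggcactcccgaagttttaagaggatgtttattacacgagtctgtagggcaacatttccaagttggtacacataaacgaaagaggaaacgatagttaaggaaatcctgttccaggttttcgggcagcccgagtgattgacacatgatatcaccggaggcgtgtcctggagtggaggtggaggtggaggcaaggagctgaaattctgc
SPRED2: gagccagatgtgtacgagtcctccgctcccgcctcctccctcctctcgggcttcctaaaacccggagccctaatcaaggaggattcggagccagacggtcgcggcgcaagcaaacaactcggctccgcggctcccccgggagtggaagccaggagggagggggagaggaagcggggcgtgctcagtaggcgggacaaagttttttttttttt
The SPRY4 window is chr5:142324248-142324497 (minus strand), of which 170 bases lie in annotated exons of GENCODE 29 and 0 in an annotated UTR. The SPRY2 window is chr13:80341127-80341376 (minus strand) and the SPRY1 window chr4:123396545-123396794 (plus strand), both outside the GENCODE gene spans. The SPRED2 stretch is chr2:65432638-65432849 (minus strand), printed without the last 38 bases of the window, which GENCODE places in a UTR.

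Of the 11 windows, 2 held CCGGAA, the first SPRY2 window 142 bases and the second SPRY1 window 67 bases before the start, and 14.5% of 35116 promoters of the same length held it. The longer CCGGAAGT was in 0 of the 11 and in 3.42% of all. GGGCGG was in 5 of 11, one window each of SPRY1, SPRY2, SPRY4, SPRED1 and SPRED3, and in 42.6% of all promoters. The first SPRED3 window held TGAATGAA 192 bases and TGACTCA, a form of TGANTCA, 60 bases before the start; these motifs were in 1.40% and 6.57% of all promoters. TGAATGGA and TGACGTCA were in 0 of 11, and in 0.832% and 1.65% of all. Neither SPRED2 window held any of the motifs. Several of these windows overlap exons annotated by GENCODE. The second SPRY1 window lies wholly in exons, with 201 of its 250 bases in a UTR. The SPRED1 window lies wholly in a UTR. Of the SPRED3 windows, the first has 126 bases in exons and the second all 250. Motif matches in windows that lie wholly in exons are therefore in annotated exons. All are matches of letters, not measured sites.

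SPRY4, a Sprouty that acts on RAS activation downstream of growth factor receptors, was the most abundant member in vehicle tumors and the one that fell furthest. The gene (ENSG00000187678.10) spans chr5:142310427-142326455 on GRCh38. At 2 h SPRY4 measured 2.35, 3.03, 2.44 and 3.27 TPM in IK-595 tumors, against 48.2, 41.8, 49.2 and 42.8 TPM in vehicle tumors. At 4 h it measured 0.422, 0.635, 0.488 and 0.361 TPM, and at 8 h 1.90, 0.489, 0.859 and 0.383 TPM. Every IK-595 tumor from 2 to 8 h lay below every vehicle tumor, and tumor 1 stood highest at 8 h. The counts behind the 4 h values were 23 to 32 per tumor, against 3072 to 3397 in vehicle tumors.

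The log2 fold change of SPRY4 was -3.84 ± 0.33 at 2 h (SE, n = 4 per group; adjusted p 2.43e-07), -6.69 ± 0.39 at 4 h (adjusted p 3.54e-10) and -5.21 ± 0.35 at 8 h (adjusted p 1.69e-09). The 4 h fall is 103-fold, with a 95% interval of -7.45 to -5.93 on the log2 scale, and SPRY4 ranked 2 of 18242 genes from the most fallen. Its rank was 22 at 2 h and 21 at 8 h. From 2 to 4 h SPRY4 fell by 2.85 ± 0.35 on the log2 scale (adjusted p 1.14e-04). From 4 to 8 h it rose by 1.48 ± 0.37 (adjusted p 0.0067), with tumors of both times overlapping. The call was not made in fits of log2 TPM (0.31 and 0.60) or in a fit of those groups alone (1.44, adjusted p 0.067). Nor was it made without the 6 tumors high in host markers (adjusted p 0.0815). That fit left out tumors 2 and 4 of both times and gave a rise of 2.23 ± 0.38.

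By 24 h SPRY4 had come partway back, to 53.2% of the vehicle mean in TPM. It measured 22.9, 18.5, 29.6 and 26.0 TPM at 24 h and 37.3, 29.9, 43.1 and 28.7 TPM at 48 h, beside the 41.8 to 49.2 TPM of vehicle tumors. The 24 h tumors all lay below the vehicle tumors, and 1 of the 48 h tumors lay within their range. The log2 fold change at 24 h was -0.79 ± 0.29 (adjusted p 0.0467), a call lost on leaving out any of 7 of the 8 tumors, with values from -0.95 to -0.66. At 48 h it was -0.30 ± 0.29, with an interval of -0.86 to 0.26 (adjusted p 0.592). From 8 to 24 h SPRY4 rose by 4.42 ± 0.34 on the log2 scale (adjusted p 1.06e-07), rank 23 from the most risen. An antisense gene, SPRY4-AS1, overlaps SPRY4 and had 0 to 15 counts, at most 9.38% of the SPRY4 count of the same tumor; whether strand was used in counting is not given in the sources used here.

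SPRY1 (ENSG00000164056.11, chr4:123396795-123403760), a Sprouty known for restraining RET and FGF receptor signaling in the developing kidney, fell early and then exceeded vehicle. It measured 5.29, 6.45, 4.73 and 7.40 TPM at 2 h, against 22.7, 17.7, 13.1 and 18.3 TPM in vehicle tumors. The 4 h and 8 h tumors ranged from 4.23 to 8.49 TPM. All 12 of these IK-595 tumors lay below the lowest vehicle tumor. The log2 fold changes were -1.60 ± 0.17 at 2 h (adjusted p 2.13e-06), -1.95 ± 0.17 at 4 h (adjusted p 3.96e-08) and -1.36 ± 0.17 at 8 h (adjusted p 1.92e-06).

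At 24 h SPRY1 was 26.5, 29.6, 28.9 and 23.6 TPM in IK-595 tumors, against the 13.1 to 22.7 TPM of vehicle tumors. All 4 exceeded every vehicle tumor, and the rise was 1.56-fold, a log2 fold change of 0.64 ± 0.16 (adjusted p 0.00597). The call held on leaving out each of the 8 tumors, at 0.53 to 0.74, and in DESeq2 (adjusted p 0.00102) and limma-voom (adjusted p 0.0017). SPRY1 was the only one of the 6 called higher than vehicle at any time. Vehicle was sampled at 2 h, so dosing and time since the last dose cannot be told apart in this comparison.

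SPRY1 at 48 h measured 17.7, 19.8, 16.9 and 18.1 TPM, within the vehicle range. Its log2 fold change against vehicle was 0.12 ± 0.16, with an interval of -0.20 to 0.44. The 48 h tumors all lay below the 24 h tumors, at -0.52 ± 0.16 between them (adjusted p 0.0735), which did not pass. From 8 to 24 h SPRY1 rose by 2.00 ± 0.17 on the log2 scale (adjusted p 1.06e-07). From 4 to 8 h it rose by 0.59 ± 0.17 (adjusted p 0.0152), a call not made in limma-voom (adjusted p 0.0522), in log2 TPM or in a fit of those groups alone.

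SPRY2 (ENSG00000136158.12, chr13:80335976-80340951), the Sprouty best known for binding CBL and so prolonging EGFR signaling at the receptor while restraining ERK downstream of FGF receptors, had fallen by 2 h and stayed between 5.16 and 12.4 TPM to 8 h. It measured 7.72, 5.16, 5.17 and 8.75 TPM at 2 h in IK-595 tumors, against 28.6, 31.2, 30.6 and 28.7 TPM in vehicle tumors. At 4 h the tumors were at 5.81, 12.4, 7.45 and 6.58 TPM and at 8 h at 10.3, 7.32, 5.96 and 6.87 TPM. All 12 of these tumors lay below every vehicle tumor, and tumor 2 was highest at 4 h. That tumor is also the one with 9982 TPM of fibroblast markers, whose part in the SPRY2 value was not tested.

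The SPRY2 log2 fold change was -1.91 ± 0.21 at 2 h (adjusted p 2.77e-06), -1.91 ± 0.21 at 4 h (adjusted p 8.95e-07) and -1.65 ± 0.21 at 8 h (adjusted p 2.02e-06). Between 2 and 4 h it differed by -0.01 ± 0.21, with an interval of -0.41 to 0.40. The 24 h tumors measured 10.04, 24.5, 22.6 and 21.3 TPM, with tumor 1 apart from the other 3. The log2 fold change there was -0.50 ± 0.20 (adjusted p 0.0678), not called by edgeR or DESeq2, and no 24 h tumor reached the vehicle range. It was called lower by limma-voom (adjusted p 0.0256), in edgeR fits of those groups alone (adjusted p 0.0389) and with no low-count filter (adjusted p 0.0373), and with fibroblast markers as a covariate (adjusted p 0.011). SPRY2 rose by 1.16 ± 0.21 from 8 to 24 h (adjusted p 8.56e-04). At 48 h it measured 29.8, 23.5, 24.2 and 25.6 TPM, with 1 tumor inside the vehicle range, and differed from vehicle by -0.13 ± 0.20, with an interval of -0.52 to 0.26.

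Summed over the Sprouty genes, TPM was 93.2 ± 4.40 in vehicle tumors and 15.4 ± 2.95, 13.8 ± 3.10, 14.9 ± 3.93, 71.0 ± 8.90 and 78.6 ± 6.78 at 2, 4, 8, 24 and 48 h (SD, n = 4 each). The sum was level from 2 to 8 h while its makeup was not. SPRY4 gave 18.1%, 3.47% and 5.65% of the sum at 2, 4 and 8 h, against 48.8% in vehicle tumors. At 24 h SPRY1 gave 38.6% ± 5.12, against 19.2% ± 3.68 in vehicle tumors, and the ranges of 33.3% to 44.6% and 14.1% to 22.8% do not overlap.

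**Figure D3:**
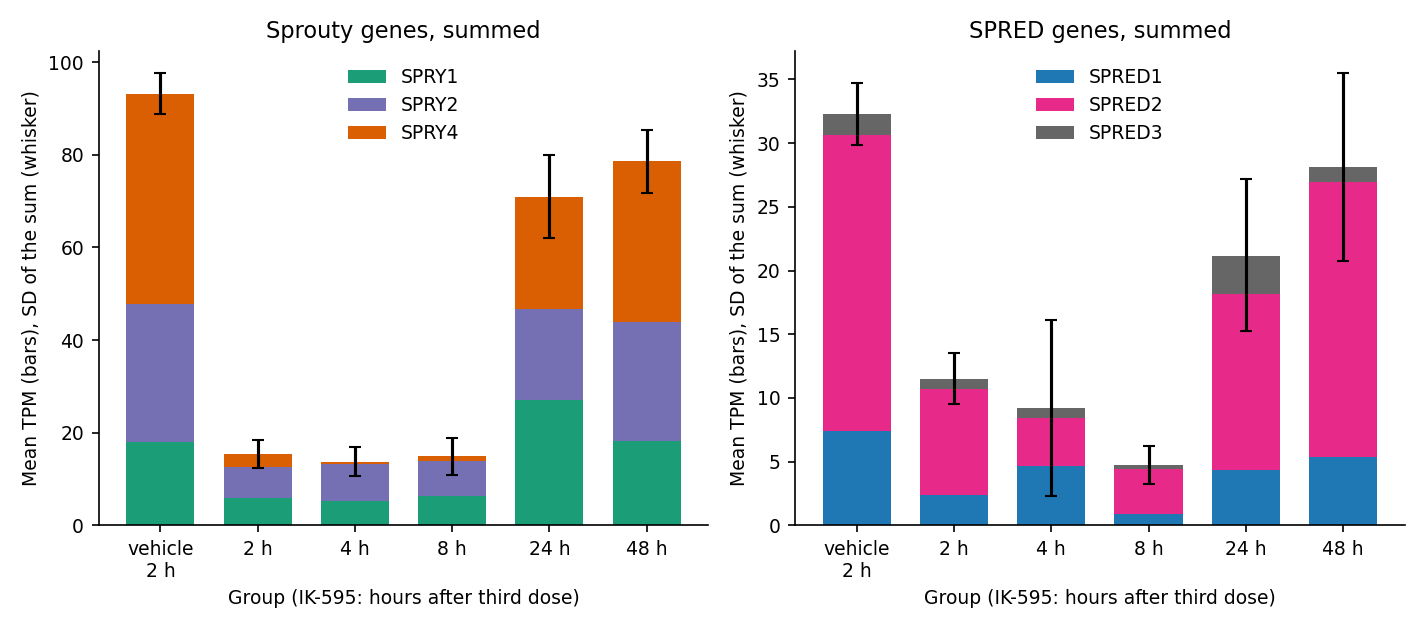
Stacked mean TPM (vertical axis) of the Sprouty genes (left) and SPRED genes (right) by group (horizontal axis); whiskers are the SD of the summed TPM over 4 tumors. SPRY4 supplies 3.47% of the Sprouty sum at 4 h, against 48.8% in vehicle tumors, and the SPRED sum at 4 h includes 1 tumor with 14.96 TPM of SPRED1.

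Ratios within a tumor show the same uneven fall. The log2 ratio of SPRY4 to SPRY1, each as TPM plus 0.1, averaged -1.07 ± 0.10 at 2 h, against 1.36 ± 0.37 in vehicle tumors (SD, n = 4 each). The averages at later times were -3.21 ± 0.43 for 4 h, -2.88 ± 0.63 for 8 h, -0.18 ± 0.36 for 24 h and 0.92 ± 0.35 for 48 h. From 2 to 24 h no IK-595 tumor overlapped a vehicle tumor, and at 48 h they overlapped. The ratio of SPRY2 to SPRY1 at 24 h averaged -0.54 ± 0.57, against 0.75 ± 0.37 in vehicle tumors, with no overlap. Of 30 such comparisons of 6 gene pairs at 5 times, 13 reached 0.0286, the smallest p that an exact two-sided permutation test of 4 against 4 tumors can give. After Benjamini-Hochberg adjustment over the 30 these stood at 0.0659, and 0 passed 0.05.

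**Figure D4:**
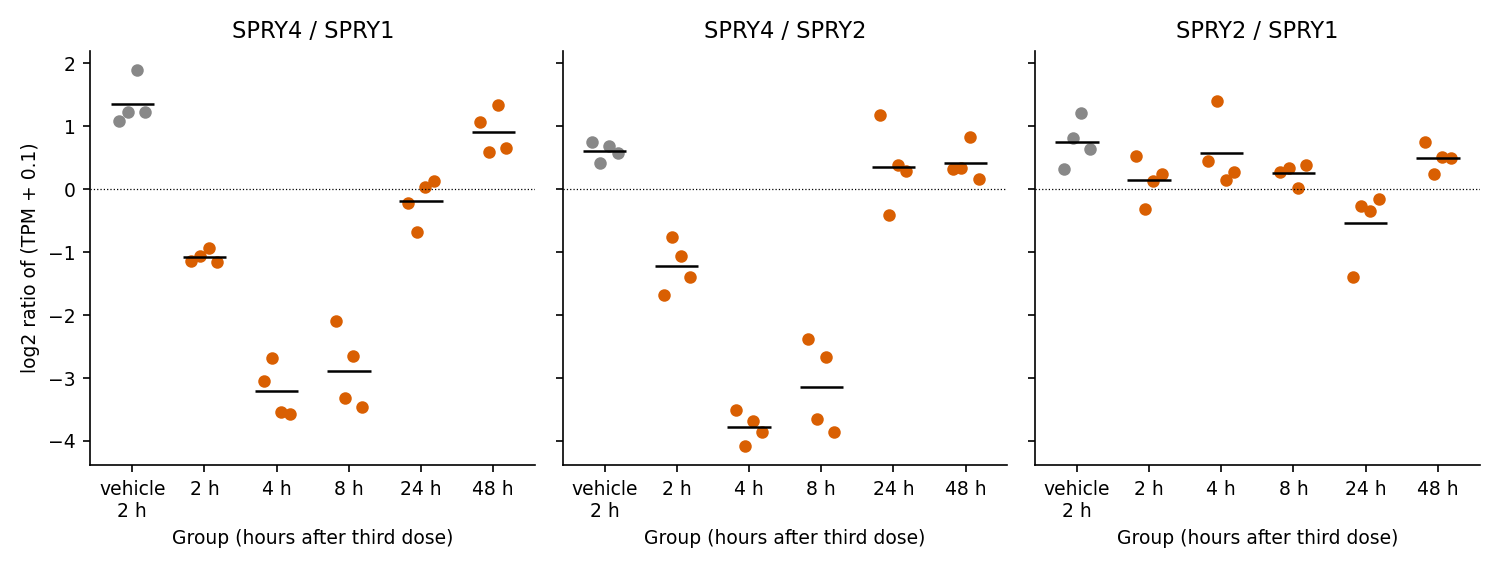
Log2 ratio of 2 Sprouty genes within each tumor, from TPM plus 0.1 (vertical axis), by group (horizontal axis); points are tumors, bars are means, vehicle is grey. SPRY4 over SPRY1 averages -3.21 at 4 h, and SPRY2 over SPRY1 is below 0 in all 4 tumors at 24 h.

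SPRED2 (ENSG00000198369.10, chr2:65310851-65432637), a SPRED that carries neurofibromin to RAS, was the most abundant SPRED gene and fell in 2 steps. It measured 8.51, 9.43, 6.77 and 8.83 TPM at 2 h, against 26.1, 24.3, 21.1 and 21.4 TPM in vehicle tumors. At 4 h the tumors were at 3.44, 3.05, 3.84 and 4.64 TPM, all below the 2 h tumors. At 8 h they were at 5.31, 3.40, 2.95 and 2.44 TPM, a range that holds the 4 h one.

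The SPRED2 log2 fold change was -1.25 ± 0.20 at 2 h (adjusted p 1.61e-04), -3.05 ± 0.21 at 4 h (adjusted p 1.52e-09) and -2.55 ± 0.21 at 8 h (adjusted p 7.53e-09). The further fall of 1.80 ± 0.21 on the log2 scale between 2 and 4 h passed (adjusted p 4.96e-05). At 24 h SPRED2 measured 10.03, 13.5, 16.7 and 15.2 TPM, all below vehicle, at -0.63 ± 0.20 (adjusted p 0.0205), a call lost on leaving out 3 of the 8 tumors in turn, at adjusted p values of 0.0503 to 0.0527. At 48 h it was 26.9, 21.6, 24.5 and 13.4 TPM, with tumor 4 below the other 3, and the log2 fold change was -0.04 ± 0.20.

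SPRED1 (ENSG00000166068.13, chr15:38252326-38357249), the Legius syndrome gene, fell too, with 1 tumor at 4 h whose place depended on the unit. At 2 h it measured 3.56, 2.14, 1.58 and 2.12 TPM in IK-595 tumors, against 7.81, 6.86, 8.09 and 6.97 TPM in vehicle tumors. At 4 h it measured 0.831, 15.0, 1.73 and 1.22 TPM, and at 8 h 1.22, 0.769, 0.403 and 1.201 TPM. In TPM tumor 2 at 4 h was the highest of all 24 tumors, while the other 11 tumors from 2 to 8 h lay below every vehicle tumor. In CPM, counts scaled to library size, that tumor was at 26.4, with the other 4 h tumors at 3.76 to 4.72, against 32.0 to 34.8 in vehicle tumors, so all 12 tumors from 2 to 8 h lay below vehicle.

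The SPRED1 log2 fold change was -1.17 ± 0.45 at 2 h, not called in the edgeR fit of all tumors (adjusted p 0.056). It was called by DESeq2 (adjusted p 0.0292) and limma-voom (adjusted p 0.0047), with no overlap between the groups. EdgeR also called it in those groups alone (adjusted p 3.02e-04) and with fibroblast markers as a covariate (adjusted p 6.81e-04). The edgeR fit without the tumors high in host markers called it too (adjusted p 0.00206). It was not called with the length offset (adjusted p 0.0824), with other scalings or filters, or on leaving out each tumor. The log2 fold change was -1.80 ± 0.46 at 4 h (adjusted p 0.00978) and -2.65 ± 0.48 at 8 h (adjusted p 1.68e-04). Without tumor 2 the 4 h value was -2.93 ± 0.28 (adjusted p 2.21e-07), and the mean 4 h level in CPM was 12.9% of the vehicle mean, against 29.7% with it. In TPM the mean was 17.0% of the vehicle mean without that tumor and 63.0% with it. Between 2 and 4 h the SPRED1 log2 fold change was -0.62 ± 0.45 with all tumors (adjusted p 0.343), not called, and -1.76 ± 0.27 without that one (adjusted p 7.79e-04). Fits of TPM, of those groups alone or with a length offset, all with that tumor, did not call SPRED1 at 4 h (adjusted p 0.0926 to 0.451).

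Tumor 2 at 4 h held 9982 TPM of fibroblast and pericyte markers, with 435, 695 and 1058 TPM in the other 4 h tumors, all 9 markers measured. Its reads also gave SPRED1 an implied transcript length, counts over TPM relative to the tumor's median gene, of 1.16, against 1.81 to 3.18 in the other 4 h tumors and 2.61 to 3.02 in vehicle tumors. Endothelial markers summed to 22.4 TPM there and to 2.00 to 5.54 TPM in the others. The part of host cells in the SPRED1 value was not tested. SPRY4, at 0.635 TPM in the same tumor, stayed below every vehicle tumor.

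**Figure D5:**
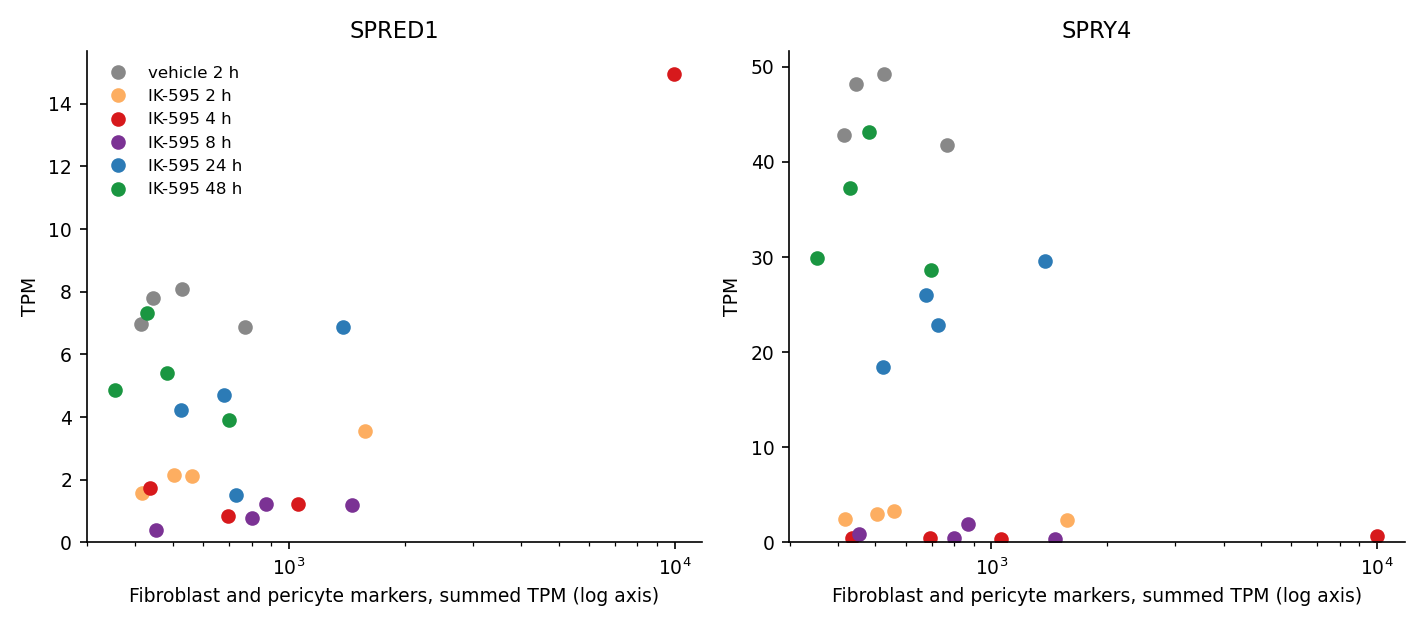
TPM of SPRED1 (left) and SPRY4 (right) on the vertical axis against the summed TPM of 9 fibroblast and pericyte markers (horizontal log axis), 1 point per tumor, colored by group. The 4 h tumor at 9982 TPM of markers has 14.96 TPM of SPRED1 and 0.635 TPM of SPRY4.

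SPRED1 came back by 24 h to 1.51, 4.22, 6.88 and 4.70 TPM, with tumor 1 lowest and tumor 3 alone inside the vehicle range of 6.86 to 8.09 TPM; in CPM no tumor of 24 or 48 h reached that of vehicle. The log2 fold change was -0.49 ± 0.44 at 24 h, with an interval of -1.35 to 0.37, and -0.31 ± 0.44 at 48 h, with an interval of -1.16 to 0.55. With fibroblast markers as a covariate SPRED1 was called lower at 24 h, at -0.85 (adjusted p 0.0203). Without the tumors high in host markers the 24 h value was -0.54 ± 0.25 and not called (adjusted p 0.132). The 48 h tumors measured 7.32, 4.85, 5.41 and 3.89 TPM, with 1 inside the vehicle range of TPM. From 8 to 24 h it rose by 2.165 ± 0.47 (adjusted p 0.00681), a call not made in log2(TPM + 1) (adjusted p 0.0841) or with the length offset (adjusted p 0.0686). Tumor 1 at 24 h was also lowest of its group for SPRY2 and SPRED2, and its myeloid markers summed to 161 TPM, with 556 to 780 TPM in the other 3; their part was not tested.

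SPRED3 (ENSG00000188766.12, chr19:38388421-38399587), the SPRED that lacks a functional KIT-binding domain and is best known from brain, was the least abundant member, with 14 to 66 counts per tumor. It measured 1.27, 0.682, 0.312 and 0.663 TPM at 2 h, against 1.67, 1.36, 1.72 and 1.66 TPM in vehicle tumors. At 4 h it ranged from 0.347 to 1.55 TPM and at 8 h from 0.227 to 0.373 TPM. The 2 h and 8 h tumors lay below all vehicle tumors, and 1 tumor at 4 h did not in TPM, while in CPM all 4 did.

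In the edgeR fit of counts, the SPRED3 falls were the shallowest of those called at each time from 2 to 8 h. They were -0.76 ± 0.25 at 2 h (adjusted p 0.0291), -0.77 ± 0.25 at 4 h (adjusted p 0.0417) and -0.99 ± 0.26 at 8 h (adjusted p 0.00338). At 8 h this order depended on the unit. The SPRED3 mean in TPM was 20.82% of the vehicle mean, with SPRY1 at 35.35% and SPRY2 at 25.62%. With the length offset SPRED3 was -2.01 ± 0.45 at 8 h (adjusted p 0.00127), SPRY1 -1.25 and SPRY2 -1.72. The implied relative length of SPRED3 was 1.77 to 2.51 at 8 h, against 0.959 to 1.47 in vehicle tumors. The 2 h call was lost on leaving out 5 of the 8 tumors in turn and the 4 h call on leaving out 7, with values of -0.90 to -0.64 and -0.93 to -0.66. Fits of TPM did not call SPRED3 at 2 or 4 h. The 8 h call held on leaving out each of the 8. The rise from 8 to 24 h was 1.18 ± 0.26 (adjusted p 0.00586). It was not called in a fit of those groups alone, at 1.17 (adjusted p 0.0782). Without the tumors high in host markers, a fit of fewer tumors, it was 1.22 and not called (adjusted p 0.109).

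At 24 h SPRED3 differed between the units. In TPM the tumors measured 2.56, 1.44, 4.51 and 3.48, and 3 of the 4 exceeded every vehicle tumor. The average was 2.997 ± 1.306 TPM, against 1.60 ± 0.16 in vehicle tumors, 187% of the vehicle mean. In CPM it averaged 3.28 ± 0.24, against 2.87 ± 0.32 in vehicle tumors (SD, n = 4 each), 114%, and the log2 fold change was 0.19 ± 0.25 (adjusted p 0.603). The implied relative length was 0.484 to 1.28 at 24 h, against 0.959 to 1.47 in vehicle tumors. With that length as an offset the value was 0.995 ± 0.431 (adjusted p 0.101), not called. At 48 h SPRED3 measured 0.885, 1.56, 1.55 and 0.652 TPM, of which 2 were inside the vehicle range, and the log2 fold change was -0.30 ± 0.25, with an interval of -0.79 to 0.18.

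The SPRED sum was 32.3 ± 2.46 TPM in vehicle tumors and 11.5 ± 2.00, 9.22 ± 6.91, 4.75 ± 1.48, 21.2 ± 5.95 and 28.1 ± 7.38 TPM at 2, 4, 8, 24 and 48 h (SD, n = 4 each). SPRED2 made up 73.8% of it at 2 h and at 8 h, against 71.9% in vehicle tumors. At 4 h its share was 55.4% ± 27.0, with tumor 2 lowest at 15.6%, where SPRED1 was 14.96 TPM.

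Ordered by mean TPM, SPRY4 ran 4 h, 8 h, 2 h, 24 h, 48 h and vehicle from low to high, and of neighbours in that order 4 h and 8 h, 24 h and 48 h, and 48 h and vehicle overlapped. SPRED2 ran 8 h, 4 h, 2 h, 24 h, 48 h and vehicle, with the same kind of gaps around 2 h. SPRY1 ran 4 h, 2 h, 8 h, vehicle, 48 h and 24 h, with gaps between 8 h and vehicle and between 48 h and 24 h. For SPRY2 and SPRED3 every pair of neighbours overlapped, and for SPRED1 only 8 h and 2 h did not.

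Across the 24 tumors the members' log2 CPM moved together to differing degrees, as a description over tumors that share groups. SPRY4 and SPRED2 were the closest pair (Pearson r 0.966), and SPRY1 and SPRED1 the least (r 0.688). Among 10433 genes with a mean log2 CPM of at least 3, those most like SPRY4 were DUSP6 (r 0.987) and DUSP4 (r 0.986), phosphatases that act on ERK, and EPHA2 (r 0.981), an ephrin receptor. SPRED2 was closest to SHB (r 0.970), an adaptor of receptor kinases, INPP1 (r 0.968) and KIAA0040 (r 0.967). For SPRY2 these were RGS2 (r 0.957), a regulator of G protein signaling, ATOSB (r 0.937) and the NOTCH ligand JAG1 (r 0.934). SPRY1 was closest to PRKAB1 (r 0.961), a subunit of AMPK, then the cytokine LIF (r 0.949) and ENC1 (r 0.934). For SPRED1 they were AMIGO2 (r 0.934), KIF21B (r 0.922) and STK10 (r 0.909), and for SPRED3 VMP1 (r 0.824), SKIL (r 0.820) and E2F3 (r 0.804).

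Among 14 other feedback inhibitors of receptors, RAS and ERK, 8, 9, 10, 7 and 1 fell against vehicle at 2, 4, 8, 24 and 48 h, where 13.6%, 8.39%, 23.7%, 13.8% and 4.46% of all genes tested fell. None of the 14 was called higher by edgeR at these times, where 13.4%, 6.74%, 20.6%, 13.7% and 5.52% of all genes rose. Their median log2 fold changes were -0.85, -0.86, -1.24, -0.64 and -0.24. DUSP6 averaged 2.85 ± 2.38 TPM at 4 h, against 127 ± 12.1 in vehicle tumors (log2 fold change -5.79 ± 0.38, adjusted p 1.09e-09), and DUSP4 1.03 ± 0.56, against 52.7 ± 9.15 (-5.77 ± 0.37, adjusted p 7.66e-10). At 24 h DUSP6 was still lower at -1.27 ± 0.31 (adjusted p 0.00442), and at 48 h it differed from vehicle by -0.03 ± 0.30. PHLDA1, an inhibitor of ERBB receptor signaling, was lower at every time, and at 48 h by -0.97 ± 0.22 (adjusted p 0.00481).

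A list of 12 transcription factors and outputs linked to ERK counts PHLDA1 again and includes the repressor CIC. Of these 12, 9, 10, 11, 7 and 3 fell at those times, beside 13.6%, 8.39%, 23.7%, 13.8% and 4.46% of all genes. One rose, at 8 h, beside 20.6% of all genes. MYC averaged 4.26 ± 0.76 TPM at 2 h, against 42.1 ± 4.12 in vehicle tumors, and its log2 fold change was -3.29 ± 0.27 (adjusted p 1.33e-07). ETV4, an ETS factor of FGF and ERK signaling, took longer. Its log2 fold change was -0.24 ± 0.18 at 2 h (adjusted p 0.347), -1.41 ± 0.18 at 4 h and -2.72 ± 0.20 at 8 h (adjusted p 1.69e-09), and 0.14 ± 0.18 at 24 h. EPHA2 fell to 5.30 ± 0.90 TPM at 4 h, against 123 ± 13.4 in vehicle tumors.

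The 22 genes whose products work with Sprouty or SPRED proteins (adaptors, CBL, neurofibromin, RAS and others) included 5, 3, 10, 8 and 2 that fell at 2, 4, 8, 24 and 48 h, where 13.6%, 8.39%, 23.7%, 13.8% and 4.46% of all genes fell. Those that rose were 2, 2, 3, 2 and 2, where 13.4%, 6.74%, 20.6%, 13.7% and 5.52% of all genes rose. Their median log2 fold change was -0.39 at 8 h and -0.07 at 4 h. LGALS1, a galectin that anchors RAS, fell at every time, and at 24 h averaged 131 ± 7.73 TPM, against 691 ± 93.1 in vehicle tumors (-2.28 ± 0.23, adjusted p 1.34e-06). PTPN11, which encodes SHP2, a phosphatase that acts on Sprouty tyrosines, fell at 2, 8 and 24 h (-1.28 ± 0.19 at 8 h, adjusted p 2.00e-05), and differed by -0.08 ± 0.19 at 4 h (adjusted p 0.821). NRAS fell at 2, 4, 8 and 24 h, at 8 h by 1.33 ± 0.18 on the log2 scale (adjusted p 6.35e-06) and at 4 h by 0.59 ± 0.18 (adjusted p 0.026). TESK1, a kinase that Sprouty proteins bind, rose at 2, 8, 24 and 48 h, by 0.47 to 0.68 on the log2 scale, and differed by -0.11 ± 0.14 at 4 h (adjusted p 0.629).

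Of 15 receptors whose signaling Sprouty or SPRED proteins act on, 1, 2, 3, 2 and 0 fell at 2, 4, 8, 24 and 48 h, counts close to the 13.6%, 8.39%, 23.7%, 13.8% and 4.46% of all genes that fell. In the other direction 3, 2, 4, 1 and 2 rose, where 13.4%, 6.74%, 20.6%, 13.7% and 5.52% of all genes rose. MET fell at 2, 4, 8 and 24 h and EGFR at 4, 8 and 24 h. At 8 h MET fell to 20.6 ± 6.35 TPM, against 136 ± 12.6 in vehicle tumors (-2.39 ± 0.24, adjusted p 1.03e-07), and EGFR to 25.4 ± 4.94, against 72.1 ± 12.6 (-1.41 ± 0.21, adjusted p 1.85e-05). ERBB2 rose at all 5 times, by 0.53 to 0.87 on the log2 scale. The insulin receptor gene INSR rose at 2, 8 and 48 h, at 8 h by 0.77 ± 0.18 (adjusted p 0.00131).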

How the data were processed

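PolyA RNA of 24 tumors was sequenced, 4 per group. Titles set the groups, because the time tag of IK-595 samples names vehicle. The deposited values are estimated counts per gene and TPM; per the submitters' processing notes, the authors' tools were Salmon 0.14.1, FastQC 0.12.1 and bcl2fastq 2.17, and the build was GRCh38.p13. No source used here states the annotation release, whether counting was stranded, or whether mouse reads were removed, so mouse reads of like sequence may be counted. Of 60230 gene IDs, 60089 were named through GENCODE 29.

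Estimated counts were rounded (59.6% of those above 0 were whole to within 0.0015), filtered with filterByExpr and scaled by TMM. All 24 tumors entered one robust quasi-likelihood fit (edgeR 4.0.16, R 4.3.3), with p values adjusted by Benjamini-Hochberg within each comparison over 18242 genes. Each adjusted p of a gene is from edgeR unless another tool is named. The standard error is the log2 fold change over the square root of F, and the 95% interval is 1.96 standard errors either way. Contrasts were each time against vehicle and each time against the one before; 6 others between times were fitted and are not described. Ratios of log2(TPM + 0.1) were compared with exact permutation tests in SciPy 1.17.1. Log2 CPM used a prior count of 2. Implied relative length is counts over TPM, scaled by the tumor's median.

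Members and lists were chosen with earlier results of these data known. Named genes are the 6 members, up to 4 genes per list with the smallest adjusted F-test p over all groups, and the 3 genes most correlated with each member. Alternatives were DESeq2 1.42.0, limma-voom of limma 3.58.1, other scalings, filters and thresholds, log2 TPM, a fit of the compared groups alone, a replicate block, a fibroblast covariate and leaving out each tumor. A length offset and a fit without the 6 tumors high in host markers (over 2000 TPM fibroblast, or over 200 TPM adipocyte, muscle and red cell) were added after seeing the data. Of 60 pairs of tumors sharing a replicate number, 20 correlated over 0.1 (mean r -0.0131). Correlations of pairs with different numbers were not computed, so these values cannot tell whether a shared number marks a pair. Simulated data were used to test the fit.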

Additional observations from a re-analysis of the deposited data

Results flagged for a closer look

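In the groups of 4 tumors, 3 of 36 had 1 tumor far from the others in TPM by Dixon's criterion, where chance flags about 1 in 20. SPRED1 was 14.96 TPM in tumor 2 at 4 h, with the other 3 at 0.831 to 1.73 TPM; fibroblast markers in that tumor summed to 9982 TPM and their part was not tested. SPRED3 was 0.227 TPM in tumor 3 at 8 h, with 0.366 to 0.373 TPM in the others. SPRED3 was 1.36 TPM in vehicle tumor 2, with 1.66 to 1.72 TPM in the others.

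SPRY1 was called lower than vehicle at 8 h and higher at 24 h. The difference itself, 24 h over 8 h, was 2.00 on the log2 scale (edgeR adjusted p 1.06e-07), and the 4 tumors of 24 h all exceeded the 4 of 8 h.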

How the results depend on the processing

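Over 14 alternative settings, apart from leaving out single tumors, 673 of 756 values of a member in a comparison kept their direction and side of the threshold, 37 lost the call, 22 gained it and 24 changed sign. With a replicate block no member's call changed, and 2 members fell and 1 rose at 24 h as without it. Whether the numbers pair tumors was not settled.

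At 24 h against vehicle 2 members fell, but 0 at an adjusted p under 0.01, 1 with upper-quartile scaling, 3 in limma-voom and in the compared groups alone, 4 with the fibroblast covariate and 0 to 1 on leaving out each tumor. From 4 to 8 h 2 rose, but 1 at an adjusted p under 0.01, in limma-voom or with no low-count filter, and 0 in log2(TPM + 1), in log2(TPM + 0.1), in the compared groups alone or without the tumors high in host markers; with the length offset 1 fell. From 24 to 48 h 1 fell in DESeq2, limma-voom, upper-quartile scaling and with the fibroblast covariate, and 1 rose in DESeq2 and 0 to 1 rose on leaving out each tumor. Calls over all genes tested moved with the settings too. At 24 h against vehicle 1349 to 3337 genes fell, with 2518 in the edgeR fit of all tumors. From 4 to 8 h 0 to 2778 rose (2114 in that fit) and 0 to 4002 fell (2834). From 24 to 48 h 65 to 1048 fell (291) and 77 to 992 rose (451). The cause of these differences between settings was not tested.

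SPRY2 from 2 to 4 h was 0.0211 in DESeq2, 0.0229 in RLE scaling, 0.0242 with the CPM filter, 0.018 in the compared groups, 0.0334 with no filter, 0.0324 with the length offset, 0.21 in log2(TPM + 1), 0.24 in log2(TPM + 0.1) and -0.27 to 0.19 on leaving out each tumor. SPRED3 there was 0.00876 in DESeq2, 0.0157 in RLE scaling, 0.0436 with no filter, 0.0174 with the CPM filter, 0.0383 and 0.0614 in the TPM fits, 0.00762 in the compared groups, 0.26 without host-high tumors and -0.17 to 0.16 on leaving out each tumor. SPRED1 there, at -0.62 with all tumors by edgeR, was 0.16 and 0.0376 in the TPM fits and 0.71 with the length offset; from 4 to 8 h, at -0.86, it was 0.30 without host-high tumors and -1.15 to 0.29 on leaving out each tumor. From 4 to 8 h SPRY2 was -0.0448 and -0.0473 and SPRED2 -0.0953 and -0.13 in the TPM fits. SPRED2 at 48 h was -0.13 to 0.11 on leaving out each tumor.

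The SPRED2 to SPRED1 ratio against vehicle was -0.00925 at 2 h and -0.28 at 8 h in log2(TPM + 1), -0.0608 at 2 h and -0.0848 at 24 h in log2 CPM, and -0.10 to 0.36 at 24 h on leaving out each tumor. The SPRED1 to SPRED3 ratio at 48 h was -0.14 in log2(TPM + 1) and -0.24 at the lowest on leaving out a tumor. The SPRY4 to SPRY2 ratio at 24 h was -0.52 to 0.00766 on leaving out each tumor. SPRED3, at 14 to 66 counts, and SPRY4 at 4 h, at 23 to 32, are limited by depth.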
